A study of Mus musculus with 4 samples.

Results

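Transcripts of 10 genes for mRNA decay adaptors, tail trimming and uridylation enzymes and decapping factors were followed in mouse 2-cell embryos cultured with or without a degrader of NELFB. The genes were Btg4, Zfp36l2, Pabpn1l, Pan2, Pan3, Zcchc11, Zcchc6, Dis3l2, Dcp2 and Xrn1, taken by gene symbol from a table of 18714 genes; all 10 had a row, and no symbol repeated. Every embryo was of the Nelfb dTAG/dTAG genotype on an outbred ICR background, so that both alleles of Nelfb carried the degron tag in treated and vehicle embryos alike. Zygotes came from natural matings of homozygous parents and were kept for 30 hours in KSOM, an embryo culture medium, with 500 nM dTAG-13 or with 0.01% DMSO as the vehicle. dTAG-13 is a small molecule that joins the tagged protein to a ubiquitin ligase; NELFB is a subunit of the complex that holds RNA polymerase II paused near promoters. Each library was made from a pool of 3 embryos, with 2 libraries per treatment. No untagged embryos are among these samples, so the effect of the tag itself or of dTAG-13 without a tagged protein was not measured.

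In the mouse, the oocyte stops transcription before it matures, and the early embryo runs on stored mRNA that is cleared as the embryonic genome is switched on around the 2-cell stage. Clearance begins with the poly(A) tail: adaptors such as BTG4 bring the CCR4-NOT deadenylase to the message, and PAN2-PAN3 trims long tails. Shortened tails can be marked with uridines by the enzymes that Zcchc11 and Zcchc6 encode (also called TUT4 and TUT7), and the body of the message is then eroded from the 3′ end by exonucleases such as DIS3L2, or decapped by DCP2 and degraded from the 5′ end by XRN1. The mRNAs of several of these factors are themselves stored in the oocyte.

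The libraries held 38112685 and 33897568 reads in genes with dTAG-13 and 18923479 and 16522506 with DMSO. Values below are scaled reads, which are reads divided by the authors' size factor for each library; 1 read was worth between 0.622 and 1.62 scaled reads. Markers of the labelled stage were present in every library, with summed levels of 44944 and 59586 scaled reads for 9 2-cell genes with dTAG-13 and 140695 and 125537 with DMSO. By limma 5 of these 9 were lower with dTAG-13 and 0 higher, with a median fold change of -1.65 (log2). Of the oocyte transcripts listed, 26 of 40 were lower with dTAG-13 and 0 higher by limma, and their median fold change was -2.58 (log2). Among all 15978 genes tested, limma called 9.79% lower and 8.94% higher (adjusted p under 0.05), with a median of -0.10 (log2). Of the cumulus and granulosa markers listed, 3 of 10 had a row in the table (344 to 937 scaled reads summed with DMSO, 423 to 462 with dTAG-13), and of the sperm markers 4 of 7 (97.4 to 160 with DMSO, 27.2 to 29.9 with dTAG-13). The blood list had 3 of 6, at 1062 and 1066 with DMSO against 202 and 202 with dTAG-13, mostly Hba-a1, and the oviduct list had 4 of 6, mostly Epcam, at 4074 to 4481 with DMSO and 7233 to 8283 with dTAG-13. Their part in the results was not tested. dTAG-13 acts on protein, so the transcript of the tagged gene Nelfb (log2 fold change -1.23 ± 0.86, adjusted p = 0.343, limma) does not check the labels. Libraries were made from pooled polyadenylated RNA, so fewer tailed copies per cell and a different share of contributing cells cannot be told apart.

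Of the 10 genes, Btg4 and Pan3 fell with dTAG-13 and 8 did not pass the test (limma on log2(scaled reads + 1), Benjamini-Hochberg adjusted p under 0.05 over 15978 genes tested). Across all genes tested, 9.79% were called lower and 8.94% higher, and 2 of 10 members lower should be read beside those shares. By limma 0 members were higher. With no adjustment (p under 0.05) there were 1 higher and 5 lower, beside 2978 higher and 3288 lower of the 15978 genes tested. On recovered whole reads, edgeR's quasi-likelihood test placed 2 lower and 0 higher (7.17% and 6.42% of all genes), and DESeq2 placed 4 lower and 1 higher (16.6% and 15.1%). Restricted to genes with a mean of 50 or more, limma placed 3 lower and 1 higher (16.8% and 17.2%), and with the replicate number as a block 4 lower and 0 higher (11.5% and 11.6%). The median log2 fold change of the 10 was -2.14, against -0.10 for all genes tested. The 2 groups of libraries did not overlap for 8 of the 10: 6 were lower in both dTAG-13 libraries than in both DMSO libraries (34.5% of all genes tested were), and Zcchc11 and Xrn1 were higher in both (32.2%). The adjusted p of both depended on single libraries, while the fold changes stayed between -4.09 and -3.44 for Btg4 and between -2.68 and -2.12 for Pan3 with any 1 library left out. Without DMSO replicate 1 limma called Pan3 lower and Zcchc11 higher, and without DMSO replicate 2, dTAG-13 replicate 1 or dTAG-13 replicate 2 it called 0 members, with 3, 3 and 5 at an unadjusted p under 0.05.

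**Figure D1:**
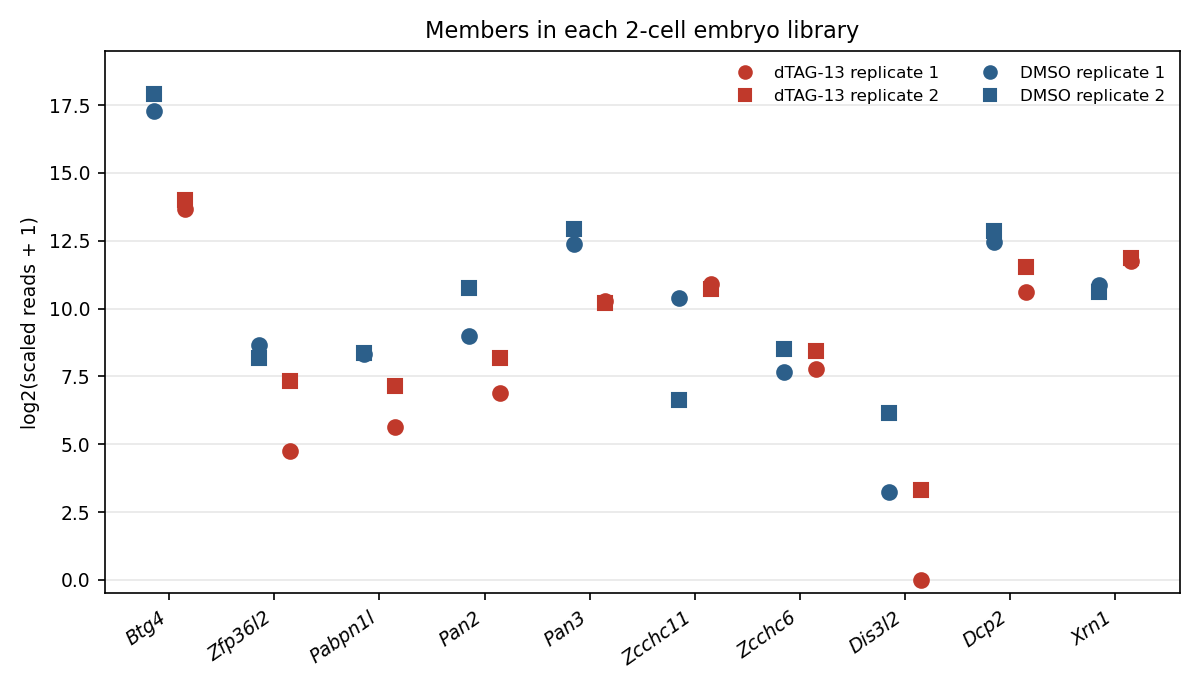
Level of each of the 10 genes in each library as log2(scaled reads + 1), with DMSO libraries left and dTAG-13 libraries right of each tick and 1 point per pool of 3 embryos. Btg4 stands far above the other genes in every library and lies lower with dTAG-13, while for Zcchc11 a single DMSO library lies far below the other 3.

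Directions depended on how libraries were made comparable. A second scaling made the mean log2 level of the 40 oocyte transcripts, a list without any of the 10 genes, equal across libraries. It did not level each transcript: the authors' log2 ratios for the list ran from -6.60 (Nobox) to 1.27 (Zp3). The second scaling shifted the all-gene median from -0.10 to 2.25 (log2), and Btg4 stayed lower while Pan3 did not. Under that scaling limma called 1 member lower (2.04% of all genes) and 3 higher (45.4%), and the median of the 10 was 0.32. Scaling on mitochondrially encoded genes set the all-gene median at 0.79 and left 0 members called by limma, with 1 higher and 2 lower before adjustment. Unless stated, values use the authors' scaling.

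**Figure D2:**
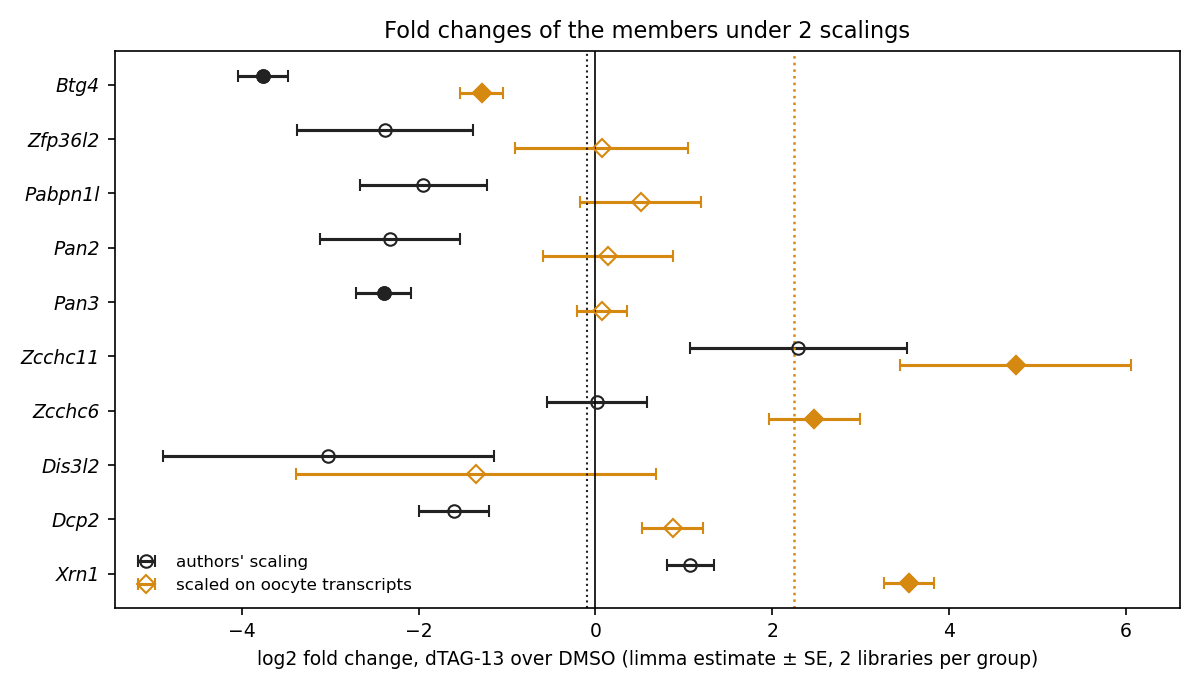
Log2 fold changes of the 10 genes, dTAG-13 over DMSO, with the standard error from the limma fit, under the authors' scaling (circles) and with libraries scaled on oocyte transcripts (diamonds); filled symbols passed an adjusted p of 0.05 and dotted lines give the median of all genes tested. Btg4 is the gene that lies left of 0 and filled under both scalings, whereas Pan3 moves from -2.40 to 0.08.

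Among the adaptors, Btg4 had the largest number of reads and the lowest unadjusted p of the 10. Btg4 (ENSMUSG00000032056.9, chromosome 9, 51060901 to 51119875 in GRCm38, plus strand) encodes the BTG/Tob family protein that links CCR4-NOT to maternal messages in mouse oocytes. It had 157204 and 245622 scaled reads in the DMSO libraries against 12869 and 16274 in the dTAG-13 libraries. The groups were far apart: the ratio of the group means was 13.8 in favour of DMSO, while pools of a group differed by 1.56 and 1.26 times. The log2 fold change was -3.76 ± 0.29 (SE, n = 2 per group; adjusted p = 0.0219, limma). It was -3.75 by edgeR and -3.79 by DESeq2, and -1.29 ± 0.25 with libraries scaled on oocyte transcripts (adjusted p = 0.0135, limma). Btg4 thus fell also relative to the mean of the listed oocyte transcripts, though not relative to each of them. With 1 library left out it lay between -4.09 and -3.44, with adjusted p from 0.0547 to 0.208. Per kilobase of annotated exon, Btg4 ranked 18 and 19 among 18625 annotated genes in the DMSO libraries and 259 and 186 in the dTAG-13 libraries.

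Promoter windows of Btg4 and Pan3, the genes that passed, and of Pabpn1l, the other oocyte-enriched adaptor, are shown because they differ in base composition although all 3 transcripts lay lower with dTAG-13 under the authors' scaling. Each runs from 250 bases before to 50 after the RefSeq start (GRCm38.p6), and capitals mark CANNTG, the E-box letters, which read the same on both strands. The Btg4 window lies inside the GENCODE span of the gene, which begins at 51060901. The windows of Pan3 and Pabpn1l cover the starts of their GENCODE spans.
Btg4, chr9:51115751-51116050, plus strand: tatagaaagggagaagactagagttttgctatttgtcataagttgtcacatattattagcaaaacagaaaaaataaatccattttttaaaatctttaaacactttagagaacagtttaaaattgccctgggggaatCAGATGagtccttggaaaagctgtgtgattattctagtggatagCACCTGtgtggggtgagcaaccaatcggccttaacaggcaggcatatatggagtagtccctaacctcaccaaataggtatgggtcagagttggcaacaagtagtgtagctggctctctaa
Pabpn1l, chr8:122622686-122622985, minus strand: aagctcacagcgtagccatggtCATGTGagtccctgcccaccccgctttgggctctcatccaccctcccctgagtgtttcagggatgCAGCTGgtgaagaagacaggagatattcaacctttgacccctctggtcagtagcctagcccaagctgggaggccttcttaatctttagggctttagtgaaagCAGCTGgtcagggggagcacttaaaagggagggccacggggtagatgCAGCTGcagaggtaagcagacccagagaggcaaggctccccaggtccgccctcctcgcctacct
Pan3, chr5:147429906-147430205, plus strand: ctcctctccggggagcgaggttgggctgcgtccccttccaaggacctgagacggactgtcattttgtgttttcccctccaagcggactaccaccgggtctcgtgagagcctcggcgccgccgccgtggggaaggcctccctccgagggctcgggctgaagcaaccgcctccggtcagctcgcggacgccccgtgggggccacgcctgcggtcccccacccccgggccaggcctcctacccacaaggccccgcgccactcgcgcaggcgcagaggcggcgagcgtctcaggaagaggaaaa
The Btg4 window had 39.0% GC, 1 CpG and 2 CANNTG; 8.4% of the 32851 windows in the table had lower GC. The Pabpn1l window had 57.7% GC, 5 CpG and 4 CANNTG, and the Pan3 window had 70.7% GC, 31 CpG and no CANNTG. Of all windows, 72.3% hold at least 1 CANNTG and the median GC is 52.7%. TATAAA, on either strand, was in none of the windows of the members and in 13.6% of all windows; CCAAT on either strand was found in windows of Btg4, Pan2, Zcchc11 and Zcchc6 and in 37.4% of all windows. Windows were at hand for 8 of the 10 genes; Zfp36l2 and Dcp2 had no entry. These are matches of letters only.

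Zfp36l2 and Pabpn1l, adaptors with far fewer reads, lay lower in both dTAG-13 libraries but did not pass. Zfp36l2 (ENSMUSG00000045817.8, chromosome 17, 84183931 to 84187947, minus strand) encodes a zinc finger protein that binds AU-rich elements and recruits deadenylases. It had 407 and 292 scaled reads with DMSO and 26.1 and 162 with dTAG-13, the lowest value resting on 42 reads. The dTAG-13 pools differed by 6.19 times, and the log2 fold change of -2.38 ± 0.99 did not pass (adjusted p = 0.146, limma). It was -3.67 without dTAG-13 replicate 2 and -1.09 without dTAG-13 replicate 1. Its exons share 105 bases with AC132455.1 on the opposite strand, from which unstranded reads cannot be told apart. Pabpn1l (ENSMUSG00000069867.2, chromosome 8, 122619471 to 122622739, minus strand) encodes the oocyte form of the nuclear poly(A)-binding protein, reported to help BTG4 act on tails in mouse. It had 318 and 325 scaled reads with DMSO and 48.5 and 140 with dTAG-13, without overlap. The log2 fold change was -1.95 ± 0.72 (adjusted p = 0.113, limma), and between -2.70 and -1.19 without 1 or the other dTAG-13 library. With libraries scaled on oocyte transcripts it was 0.51 ± 0.68 for Pabpn1l and 0.07 ± 0.98 for Zfp36l2.

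The paralogs of these adaptors gave levels to compare. Zfp36, which like Zfp36l2 binds AU-rich elements, had 883 and 992 scaled reads with DMSO and 253 and 413 with dTAG-13 (log2 fold change -1.53 ± 0.43, adjusted p = 0.0647, limma). Zfp36l1 had 154 and 29.2 with DMSO and 13.7 and 27.9 with dTAG-13 (log2 fold change -1.73 ± 1.19, adjusted p = 0.334), and 1672 of its exonic bases overlap Gm26669 on the opposite strand. Pabpn1, the widely expressed paralog of Pabpn1l, had 25822 and 21797 scaled reads with DMSO and 16376 and 19504 with dTAG-13 (log2 fold change -0.41 ± 0.22, adjusted p = 0.228). Pabpc1l, the oocyte form of the cytoplasmic poly(A)-binding protein, had 265 and 141 with DMSO against 31.1 and 12.6 with dTAG-13 (log2 fold change -3.22 ± 0.88, adjusted p = 0.0618). None of these 4 passed. Under the oocyte scaling the fold changes were 0.94 for Zfp36, 0.66 for Zfp36l1, 2.07 for Pabpn1 and -0.80 for Pabpc1l.

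Both subunits of the PAN2-PAN3 deadenylase lay lower with dTAG-13, and Pan3 passed. Pan3 (ENSMUSG00000029647.15, chromosome 5, 147430161 to 147548502, plus strand), the subunit that binds the RNA and poly(A)-binding protein, had 5300 and 7824 scaled reads with DMSO and 1249 and 1192 with dTAG-13. Its dTAG-13 pools were nearly equal, and the groups were well apart. The log2 fold change was -2.40 ± 0.31 (adjusted p = 0.0219, limma). It was 0.08 ± 0.29 with libraries scaled on oocyte transcripts, so Pan3 differed from the mean of the listed oocyte transcripts by less than its error. Pan2 (ENSMUSG00000005682.8, chromosome 10, 128303335 to 128321358, plus strand), the catalytic subunit, had 509 and 1729 scaled reads with DMSO and 118 and 292 with dTAG-13. The log2 fold change of -2.33 ± 0.79 did not pass (adjusted p = 0.0971, limma) but did with DESeq2 (-2.45, adjusted p = 0.00603). It ran from -3.21 without DMSO replicate 1 to -1.45 without DMSO replicate 2. The DMSO pools differed by 3.40 times and the dTAG-13 pools by 2.47 times.

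Transcript ends were compared because hexamers near the end set where the tail is added and, in oocytes, whether it is lengthened in the cytoplasm. In the last 100 bases of the principal GENCODE transcript, the sense strand was searched for the polyadenylation signals AATAAA and ATTAAA, the cytoplasmic polyadenylation letters TTTTAT and the AU-rich letters TATTTAT. Stretches of 30 bases with the most matches are shown for Btg4, Pan2, Pan3 and Xrn1, with matches in capitals. Btg4 and Pan2 hold TTTTAT within these last 100 bases, and Pan3 and Xrn1 hold it only further from the end.
Btg4, chromosome 9: TTTTATgtctttttaaaagtttgatttaca
Pan2, chromosome 10: TTTTATaaAATAAAagtatTTTTATctcat
Pan3, chromosome 5: ttAATAAAgaattgcagaAATAAActtgta
Xrn1, chromosome 9: tgtacatcagtgatacctcAATAAAtctgt
TTTTAT occurred once in this window in Btg4, starting 67 bases before the annotated end, and 3 times in Pan2, the last starting 18 bases before it; the other 8 genes had none. Of 19379 genes with a window, 13.9% hold TTTTAT, 64.9% AATAAA, 20.4% ATTAAA and 4.3% TATTTAT. The window of 8 of the 10 genes held AATAAA, Pabpn1l held ATTAAA, and Btg4 held neither. Over the whole 3′ untranslated region Zfp36l2 held 3 TATTTAT in 1822 bases, Dcp2 2 in 7240, Pan3 1 in 2115 and Zcchc6 1 in 1346. TTTTAT occurred 3 times in the whole region of each of Btg4, Pan2, Pan3 and Xrn1. Shares over all genes were not counted for whole regions. These are descriptions of annotated sequence, not of sites in use.

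The uridylation enzymes did not change by the test, and for Zcchc11 a single library set the size of the difference. Zcchc11 (ENSMUSG00000034610.14, chromosome 4, 108459426 to 108559421, plus strand) had 1335 and 99.0 scaled reads with DMSO, the second from 61 reads, and 1932 and 1666 with dTAG-13. Both dTAG-13 pools were the highest, but a DMSO pool lay close to them and the other was 13.5 times lower. The log2 fold change of 2.30 ± 1.23 did not pass (adjusted p = 0.228, limma). On recovered reads it was 1.31 by edgeR and 1.33 by DESeq2, and neither passed (adjusted p = 0.455 and 0.261). Leaving out DMSO replicate 2 gave 0.43 (adjusted p = 0.281), and leaving out DMSO replicate 1 gave 4.17 (adjusted p = 0.0453), so the low library decides the size. Zcchc6 (ENSMUSG00000035248.8, chromosome 13, 59771561 to 59823147, minus strand) had 199 and 364 scaled reads with DMSO and 216 and 342 with dTAG-13. The groups overlapped fully, and the log2 fold change was 0.01 ± 0.57 (adjusted p = 0.987), an error wide enough for a difference either way. Of its exonic bases, 1527 overlap Gm49354 or Etohd2. Under the oocyte scaling Zcchc11 had 4.76 ± 1.31 (adjusted p = 0.0376, limma) and Zcchc6 2.48 ± 0.52 (adjusted p = 0.0170), the latter near the shift of 2.25 of all genes.

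Dis3l2 (ENSMUSG00000053333.15, chromosome 1, 86703808 to 87050095, plus strand), the exonuclease that prefers uridylated RNA, was near the limit of detection. It had 7 and 43 reads with DMSO (8.41 and 69.8 scaled reads) and 0 and 13 with dTAG-13 (0 and 9.07 scaled reads). A library with 0 reads allows up to 3 by counting error, or 1.87 scaled reads in that library. The groups overlapped, and the log2 fold change of -3.02 ± 1.87 did not pass (adjusted p = 0.288, limma) and depends on the value added before the logarithm (-1.47 with 10 added). No direction was detectable with so few reads and with DMSO pools that differed by 8.30 times.

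The decapping enzyme and the exonuclease that follows it lay in opposite directions, each just short of the threshold. Dcp2 (ENSMUSG00000024472.9, chromosome 18, 44380502 to 44424969, plus strand), which removes the cap, had 5640 and 7454 scaled reads with DMSO and 1547 and 2952 with dTAG-13. Both dTAG-13 pools were lower, and the log2 fold change was -1.60 ± 0.40 (adjusted p = 0.0515, limma). Xrn1 (ENSMUSG00000032410.13, chromosome 9, 95954760 to 96057803, plus strand), which degrades the decapped message, had 1847 and 1579 scaled reads with DMSO and 3476 and 3713 with dTAG-13. Pools of a group were close, and both dTAG-13 pools were higher; the log2 fold change was 1.07 ± 0.27 (adjusted p = 0.0515, limma). DESeq2 called Dcp2 lower (adjusted p = 0.00134) and Xrn1 higher (adjusted p = 0.00646), and edgeR called neither (0.0613 and 0.0633). With libraries scaled on oocyte transcripts Dcp2 turned to 0.87 ± 0.35 (adjusted p = 0.0979) and Xrn1 was 3.55 ± 0.28 (adjusted p = 0.00202). Of Xrn1's exonic bases, 788 overlap Gm16794 or C78334 on the opposite strand.

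Ratios of partner transcripts within a library depend little on how libraries are scaled where both genes have many reads, and 7 were compared (log2 ratios with 1 added to each value). The value added weighs on the ratios of genes with few reads. Dcp2 stood at 1.61 and 2.24 over Xrn1 with DMSO, so its scaled reads were above those of Xrn1, and at -1.17 and -0.33 with dTAG-13, below them. The group difference in this ratio was -2.67 with a pooled SD of 0.52, and between -3.09 and -2.25 with any 1 library left out. Pabpn1l over Btg4 stood at -8.94 and -9.56 with DMSO and at -8.02 and -6.85 with dTAG-13, a difference of 1.82 with a pooled SD of 0.66 and between 1.23 and 2.40 with any 1 library left out. Pan2 over Pan3 was -3.38 and -2.18 with DMSO and -3.39 and -2.02 with dTAG-13, a difference of 0.07 with a pooled SD of 0.91, so the ratio differed more among pools than between groups. Zfp36l2 over Btg4 overlapped between groups, with a difference of 1.38 that was 0.26 without dTAG-13 replicate 2 and 2.51 without dTAG-13 replicate 1. Zcchc11 over Zcchc6 also overlapped, with a difference of 2.28 that became -0.02 on leaving out DMSO replicate 2 and 4.58 on leaving out DMSO replicate 1. Dis3l2 lay lower over Zcchc11 (-5.32) and over Zcchc6 (-3.04) without overlap, with few Dis3l2 reads behind both. With 10 added in place of 1 these differences were -3.71 and -1.49. The first ran from -8.65 without DMSO replicate 1 to -1.99 without DMSO replicate 2, and the second from -4.38 without dTAG-13 replicate 2 to -1.70 without dTAG-13 replicate 1. With 2 libraries against 2 the exact two-sided permutation test cannot give less than p = 0.333; that value was reached by 4 of the ratios (0.583 after Benjamini-Hochberg adjustment over 7), and these ratios are descriptions.

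**Figure D3:**
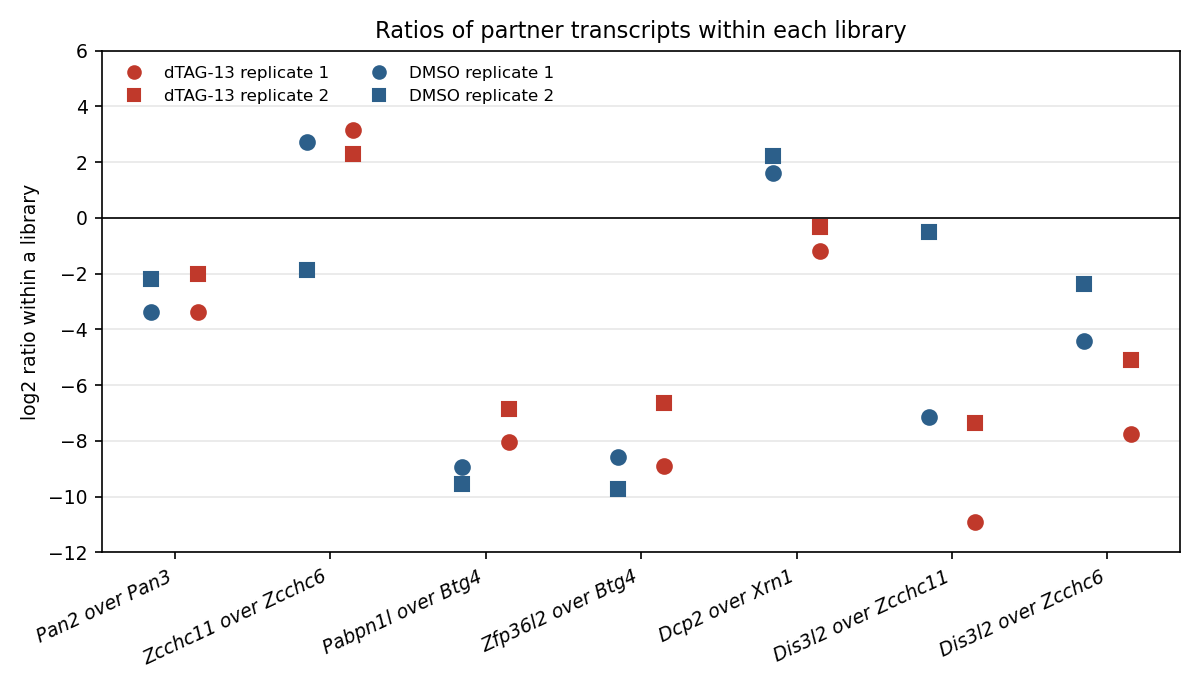
Log2 ratio of partner transcripts within each library (1 added to each value), with DMSO libraries left and dTAG-13 libraries right of each tick. The Dcp2 over Xrn1 points lie above 0 in both DMSO libraries and below 0 in both dTAG-13 libraries, and the Pan2 over Pan3 points cover the same range in both groups.

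Per kilobase of annotated exon, the order of the 10 in the DMSO libraries was Btg4 (78800 ± 24460 scaled reads per kilobase, mean ± SD, n = 2), Dcp2 (752 ± 147), Pan3 (439 ± 119), Pabpn1l (269 ± 3.81), Pan2 (132 ± 102), Zfp36l2 (99.0 ± 23.0), Xrn1 (92.2 ± 10.2), Zcchc11 (82.6 ± 101), Zcchc6 (19.1 ± 7.88) and Dis3l2 (4.39 ± 4.88). The first 5 did not overlap with their neighbours above or below among the first 5, and from Pan2 to Zcchc6 each overlapped with the next. In the dTAG-13 libraries Btg4 (5701 ± 942) still came first and Dis3l2 (0.509 ± 0.720) last, while Zcchc11 (207 ± 21.7) and Xrn1 (193 ± 9.02) held positions 3 and 4, above Pan3 (81.6 ± 2.71). Dcp2 (259 ± 114) in second place overlapped with Zcchc11.

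To place the 3 adaptors among other transcripts, the nearest profiles over the 4 libraries were sought among 8412 genes whose mean reached 100 scaled reads (Euclidean distance between log2 profiles, each centred on its mean). Nearest to Btg4 were Sorbs2 (distance 0.125), Lipt1 (0.165) and Tcte2 (0.191). Nearest to Pabpn1l were Kdm1b (0.088), a histone demethylase of the growing oocyte, Fam114a2 (0.110) and Ipcef1 (0.229). Near to Zfp36l2 were Olah (0.256) and Ranbp6 (0.257). With 4 libraries many genes share a profile by the group difference alone.

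Other genes of the pathway moved in both directions. Of the 11 other deadenylases, 3 fell, 2 rose and 6 missed the threshold; their median was 0.61 on the log2 scale (limma; -0.10 for all genes, of which 9.79% fell and 8.94% rose). With 1 library left out, limma called 0 to 2 of them lower and 0 higher; without dTAG-13 replicate 1 it called 0, with 1 higher and 3 lower before adjustment. Cnot7, a catalytic CCR4-NOT subunit, had 85181 ± 16462 scaled reads with DMSO and 15756 ± 340 with dTAG-13. Its log2 fold change was -2.42 ± 0.22 (adjusted p = 0.0219, limma). The paralog Cnot8 rose by 1.45 ± 0.21, from 5218 ± 68 to 14251 ± 752 (adjusted p = 0.0233, limma). Cnot6l, the other kind of catalytic subunit, fell by 2.56 ± 0.32, and Angel2, a relative of it, fell by 2.57 ± 0.27. Under the oocyte scaling 0 of these deadenylases were lower by limma (also 0 at an unadjusted p under 0.05) and 6 higher, Cnot8 (3.92) among them, where 2.04% of all genes were lower and 45.4% higher, and Cnot7 (0.05), Cnot6l (-0.09) and Angel2 (-0.09) were near 0.

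Of 18 tail-binding proteins and other tail-adding enzymes, 3 were lower, 2 higher and 13 did not pass (median -1.23); leaving out any 1 library left 0 called by limma in either direction, with 1 to 3 higher and 3 to 5 lower before adjustment. With all 4 libraries, limma called 9.79% of all genes tested lower and 8.94% higher, and their median was -0.10. Mtpap, the mitochondrial poly(A) polymerase, fell by 4.18 ± 0.38, from 5216 ± 565 to 295 ± 103 scaled reads (adjusted p = 0.0219, limma). It had -1.71 under the oocyte scaling, and 1371 of its exonic bases overlap other genes. Papd5 and Papd7, which encode related non-canonical poly(A) polymerases, moved apart: Papd5 rose by 1.92 ± 0.31 (4.40 under the oocyte scaling) and Papd7 fell by 1.68 ± 0.33, the latter turning to 0.79 under the oocyte scaling. Paip1, a partner of the cytoplasmic poly(A)-binding protein, fell by 2.16 ± 0.38 (0.31 under the oocyte scaling).

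Of 19 decapping partners and other 5′ decay factors, 2 were lower, 0 higher and 17 did not pass by limma (median -0.06). Of all genes tested, 9.79% were lower and 8.94% higher by limma. At an unadjusted p under 0.05 there were 1 higher and 6 lower, beside 2978 and 3288 of the 15978 genes tested. By edgeR 0 of the 19 were higher and 2 lower (6.42% and 7.17% of all genes), and by DESeq2 1 higher and 6 lower (15.1% and 16.6%). Leaving out any 1 library left 0 of these called by limma in either direction, with 0 to 2 higher and 2 to 6 lower before adjustment. Dcp1a, the activator of DCP2, fell by 2.31 ± 0.43, from 1122 ± 73 to 232 ± 76 scaled reads (adjusted p = 0.0315), and Lsm1, of the ring that binds deadenylated ends, fell by 1.56 ± 0.30 (adjusted p = 0.0321). Under the oocyte scaling Dcp1a was at 0.16 and Lsm1 at 0.91, there called higher (adjusted p = 0.0404, limma). Of 21 other decay adaptors, 2 were higher, 0 lower and 19 did not pass by limma (median 0.06), beside 8.94% higher and 9.79% lower of all genes. At an unadjusted p under 0.05 there were 4 higher and 3 lower, beside the same 2978 and 3288 of all genes. For this list edgeR placed 0 in either direction (3 and 3 before adjustment), and DESeq2 4 higher and 3 lower (15.1% and 16.6% of all genes). Nanos3, an RNA-binding repressor of the germ line, rose by 4.16 ± 0.89, from 42.3 ± 36.9 to 648 ± 284 scaled reads (adjusted p = 0.0396, limma). By edgeR Nanos3 did not pass (adjusted p = 0.0528), and under the oocyte scaling it was at 6.56. Without DMSO replicate 1 limma called 1 of this list higher, and without any other single library 0, with 0 to 3 higher and 1 to 3 lower before adjustment.

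**Figure D4:**
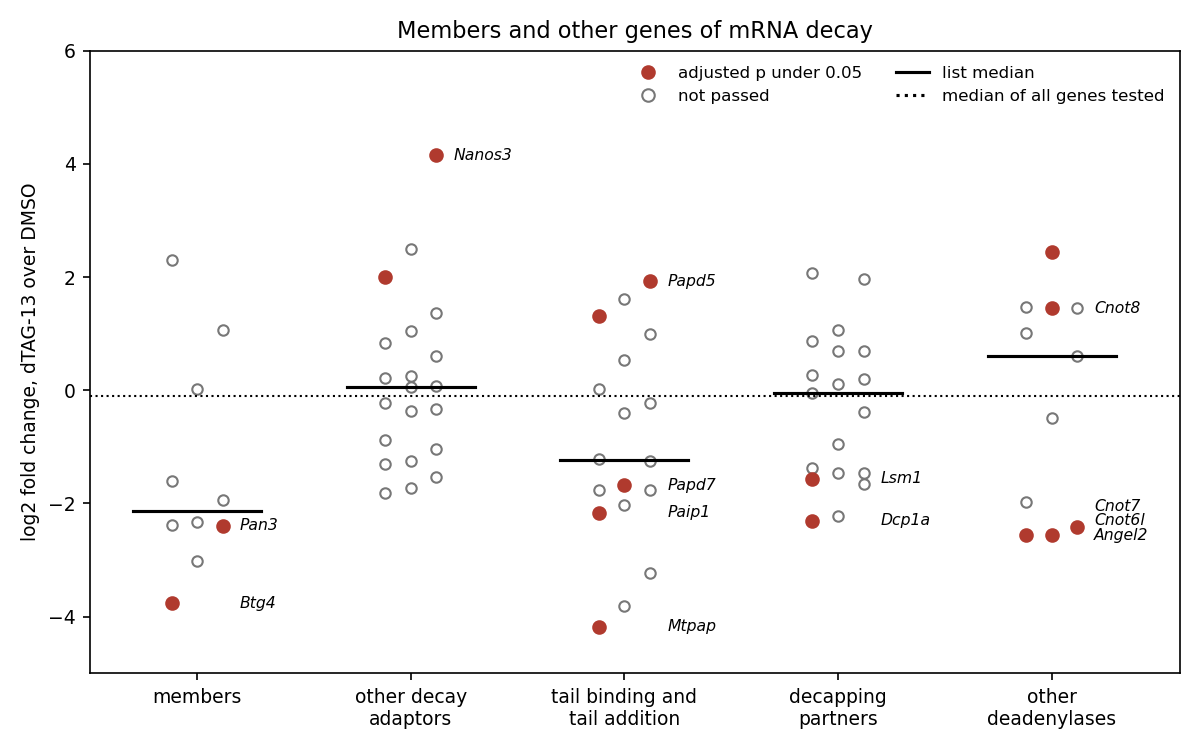
Log2 fold changes of the 10 genes and of 4 lists of other decay genes under the authors' scaling, 1 point per gene, with filled points past an adjusted p of 0.05 by limma, bars at list medians and a dotted line at the median of all genes tested. Genes past the threshold that the text describes are named, at most 4 per list; Cnot7, Cnot6l and Angel2 lie together near -2.5, and were near 0 with libraries scaled on oocyte transcripts.

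In the authors' deposited table of treated against DMSO, Btg4 (log2 ratio -3.79, adjusted p = 9.9e-35) and Pan3 (-2.43, adjusted p = 1.3e-11) were the members below 0.05. That deposited table called 8.47% of its 16281 genes lower and 7.56% higher. In the authors' deposited table Dcp2 had an adjusted p of 0.0800 and Xrn1 of 0.0910, and the other 6 members also missed the threshold.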

How the data were processed

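RNA sequencing data of 4 libraries were used. The submitters' processing notes name mm10, HTSeq, DESeq, Picard and bcl2fastq and no versions; which aligner was used is not given in the sources used here. As files, the authors deposited signal values, reads per gene divided by a size factor per library, and a table of their comparison with group means, p-values and log2 ratios. Whole reads were recovered from the deposited values for 100% of entries within 1e-04 reads. Scaled reads were tested as log2(value + 1) with limma 3.58.1 in R 4.3.3 (lmFit, eBayes with trend, two-sided) on 15978 genes with a mean of at least 10, and checked with edgeR 4.0.16 and DESeq2 1.42.0; functions were tested on simulated data. The design was written for whole-table fits without a block. Groups came from sample titles, and no label says whether pools came from separate matings; p-values then measure the spread between pools, which may be technical. Members and gene lists were chosen with earlier results of these data known. Other genes named are at most the 4 of smallest p among those called per list, fixed paralogs and partners, and the nearest profiles; some genes that this rule names are not reported here. Coordinates and exon lengths are from GENCODE M21 (GRCm38), matched by gene ID for 18625 of 18714 genes; promoters are from RefSeq. Floors cover counting error only.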

Additional observations from a re-analysis of the deposited data

How the results depend on the processing

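The counts of called genes and members were recomputed under 15 other settings. All genes called higher and lower numbered 1428 and 1565 in the reported test, 2406 and 2650 with DESeq2, 7248 and 326 with libraries scaled on oocyte transcripts, 209 and 380 without a variance trend, and 0 and 0 by limma with libraries scaled on mitochondrially encoded genes (4162 and 1403 at an unadjusted p under 0.05). With 1 library left out, limma called between 0 and 360 genes higher and between 0 and 773 lower; a group then has 1 pool, assumed to vary like the other group. The 0 counts came without dTAG-13 replicate 1 (1348 and 2171 before adjustment) and without dTAG-13 replicate 2 (1408 and 2471).

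Members called higher numbered 0 in the reported limma test, 1 with a pseudocount of 10, with a mean of at least 50 and with DESeq2, and 3 under the oocyte scaling. Members called lower numbered 2, against 4 with DESeq2, 4 with the replicate block, 1 under the oocyte scaling, and 0 by limma under the mitochondrial scaling and without a variance trend (2 at an unadjusted p under 0.05 in each). Leaving out 1 library gave 0 to 1 members higher and 0 to 1 lower. The cause of these changes was not tested. Of 149 fold changes of members under other settings, 116 kept their direction and side of the threshold. Under the oocyte scaling Zfp36l2 (0.071), Pabpn1l (0.51), Pan2 (0.14), Pan3 (0.075) and Dcp2 (0.87) reversed, and Zcchc6 was -0.01 with DESeq2, -0.31 without dTAG-13 replicate 2 and -0.42 without DMSO replicate 1, its lowest of a leave-one-out range up to 0.45. Of 42 partner ratios under other settings 39 kept their direction; Pan2 over Pan3 was -0.61 without dTAG-13 replicate 2 and -0.53 without DMSO replicate 1, with a highest value of 0.75, and Zcchc11 over Zcchc6 was -0.021 without DMSO replicate 2, with a highest value of 4.58.

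No label pairs the same-numbered pools, and their deviations from the group means correlated at -0.014 across genes. With 2 pools per group the crossed numbers give the mirror value of 0.014. The correlation therefore cannot tell whether same-numbered pools shared a mating or a culture day. The replicate block raised the calls over all genes to 1855 higher and 1832 lower and added Pan2 and Dcp2 to the lower members. Few reads limit Dis3l2, and 2 pools per group limit all 10 genes.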
